A study of Macaca mulatta with 13 samples.

Results

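Among colon cells of rhesus macaques that had been sorted as leukocytes, 151 cells were selected. Of these, 147 carried RNA of gut epithelium, and 4 went against that label, with RNA of connective tissue. The 151 cells were chosen by measured values. FABP1, PLA2G2A and GCG together made up at least 0.3% of the unique molecular identifiers (UMIs, each marking 1 captured RNA molecule) of the cell. CD3D, CD3E and CD3G together had under 3 UMIs, and JCHAIN made up under 1%. The selected cells were 151 of the 20567 cells that the authors kept in 12 libraries, or 0.734% (95% exact binomial interval 0.622% to 0.861%, counting error only). The study concerns graft-versus-host disease (GVHD) after allogeneic hematopoietic cell transplant, in which donor immune cells attack the recipient, with untransplanted healthy animals as controls. Its labels name 4 libraries of host cells and 2 of donor cells from GVHD colons, 3 of host and donor cells of GVHD colons together, and 4 of healthy control colons. Frozen colon cells were thawed and sorted as viable and positive for the leukocyte surface protein CD45, and negative for the CD45 antibody marked IVas. Antibody to the macaque MHC class I protein MAMU-A001 parted host from donor cells in 2 GVHD samples. The labels used here state no strain, age, conditioning or time after transplant.

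The deposited counts form 1 matrix, in which a number from 1 to 13 at the end of a barcode marks the library. No source used here ties a number to a label, so libraries are named by number, no library is called host, donor or healthy, and no test between groups was made. Barcode number 4 was left out, since 5323 of its 5429 barcodes also occur in library 6, while no other pair of numbers shares more than 55. The 12 remaining libraries are treated as 1 pooled sample with values for each library, and all levels below are counts per 1000000 UMIs of the summed cells (CPM), with exact Poisson intervals that cover counting error only.

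The lining of the colon is a single sheet of epithelial cells that is renewed from stem cells at the base of the crypts. Its absorptive colonocytes take up water, salt and fatty acids, its goblet cells make mucus, and its scattered enteroendocrine cells release hormones. FABP1 is a fatty acid binding protein of absorptive cells, PLA2G2A is a secreted antibacterial phospholipase, and GCG encodes proglucagon, from which gut L cells make glucagon-like peptides. In GVHD of the gut, epithelial cells are targets of donor T cells.

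The selected cells were spread very unevenly over the libraries. Library 1 held 112 of them, which were 5.74% of its 1952 kept cells (4.75% to 6.86%). Library 6 held 18, or 17.8% of its 101 kept cells (10.9% to 26.7%), and library 7 held 8, or 27.6% of its 29 kept cells (12.7% to 47.2%). Libraries 10, 11, 12 and 13 held 4, 4, 3 and 2, at shares from 0.105% to 0.549%. Libraries 2, 3, 5, 8 and 9 had none among 10635 kept cells, which allows a share of up to 0.0282%. The 3 libraries with the highest shares therefore included the 2 with the fewest kept cells.

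**Figure D1:**
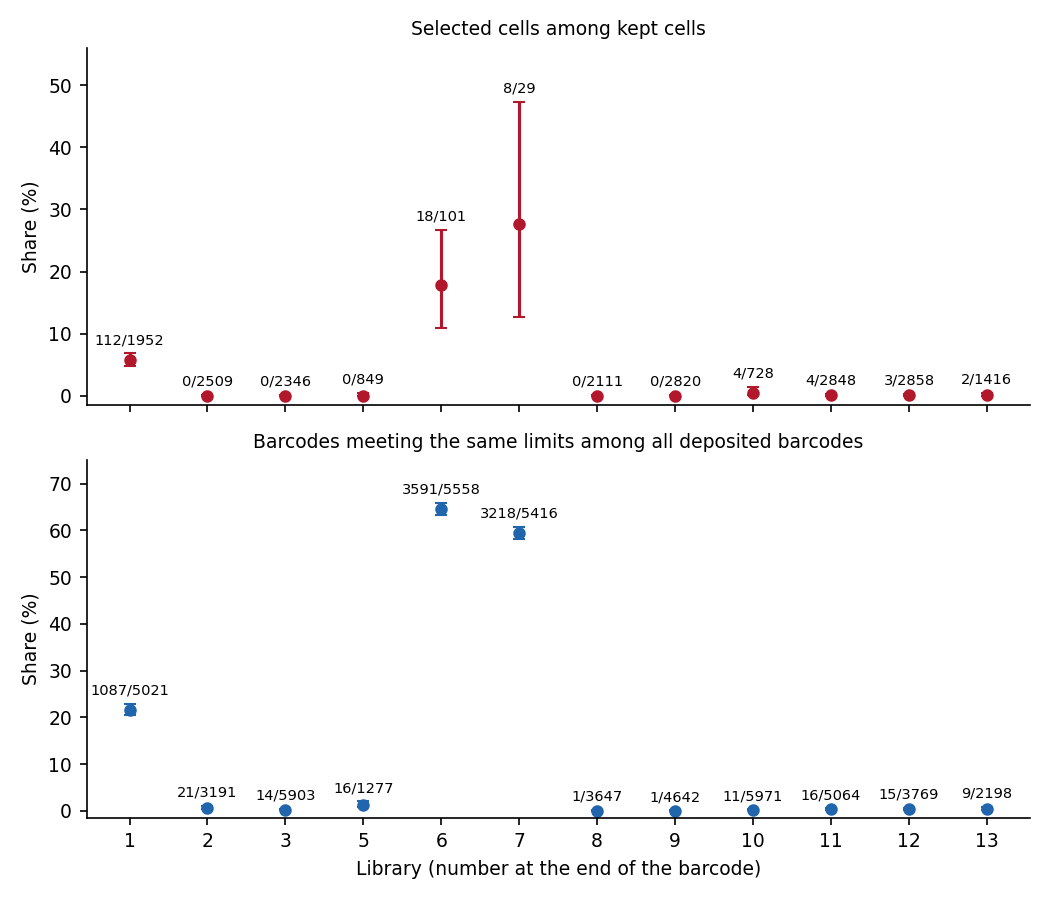
Share of selected cells among kept cells (upper panel) and share of barcodes that meet the same limits among all deposited barcodes (lower panel), in percent, for each of the 12 libraries. Points are shares, bars are 95% exact binomial intervals, and the fraction above each point gives the counts; libraries 1, 6 and 7 stand above all others in both panels.

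Other epithelial genes, which the choice did not use, were found in nearly all of the selected cells. EPCAM, an adhesion molecule of epithelium, and the keratins KRT18 and KRT19 together had at least 2 UMIs in 147 of 151 cells (97.4%), with a median of 14 UMIs. The other 4 cells had at most 1 such UMI and instead held 20 to 649 UMIs of the connective tissue genes COL1A1, COL1A2, COL3A1, DCN and LUM. All 4 were led by PLA2G2A, and they are called collagen cells below. They go against the epithelial label. In the 147 other selected cells the highest count of those connective tissue genes was 1.

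Most selected cells held no RNA of general leukocyte genes. A list of 10 genes of all leukocytes, among them PTPRC (which encodes CD45), CD52 and LAPTM5, had no UMI in 126 of 151 selected cells (83.4%), against 1.31% of the 20416 other kept cells. Its highest sum was 30 UMIs in the selected cells and 307 in the others. The cell with 30 was in library 11, had 12397 UMIs in all and also held 28 UMIs of the B cell list. A list of T cell genes had no UMI in 87.4% of selected cells against 7.45% of other kept cells, a contrast that the limit on CD3 UMIs helps to fix. A list of myeloid and mast cell genes had no UMI in 72.8% of selected cells and 86.0% of other kept cells, so that a UMI of it was more frequent in selected cells, with at most 4 UMIs in any of them. No doublet caller was run, and whether droplets with more than 1 cell contribute was not tested. A further 33 kept cells passed the 0.3% limit but had 3 or more CD3 UMIs, and were left out by the rule. Of these, 26 were in library 1 and 26 had at least 2 UMIs of EPCAM, KRT18 and KRT19.

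Selected cells had a median of 2805 UMIs and 1038 genes, and other kept cells 3417 UMIs and 1144 genes. In library 1, with each cell thinned to 1500 UMIs, a median of 681.5 genes was found in selected cells and 640.0 in others. Values just inside the 0.3% limit were 0.303%, 0.306%, 0.320%, 0.343% and 0.376%, and those just outside it were 0.293%, 0.289%, 0.284%, 0.283% and 0.277%. The last of these belonged to a library 1 cell with 635 connective tissue UMIs and no EPCAM, KRT18 or KRT19.

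The background of the 3 genes was read in kept cells with at least 3 CD3 UMIs, called T cells here, which should lack them. Free RNA and droplets with more than 1 cell cannot be told apart in this value. The rule sets a high level of the 3 genes in selected cells, so their values are given for scale only. In library 1 the 3 genes had 28826 CPM in the selected cells and 240.1 CPM in the T cells, of which 27.8% had a UMI of them, with median depths of 2769 UMIs in the selected cells and 2938 UMIs in the T cells. In library 6 the selected cells had 20311 CPM and the T cells 714 CPM, with a UMI in 66.7% of the T cells. In library 7 the selected cells had 30260.5 CPM and the T cells 145 CPM. In libraries 2, 3, 5 and 8 to 13 the T cells had at most 15.7 CPM. Without the T cells that themselves passed the 0.3% limit, a reading added after seeing the data, the T cells had 101.3 CPM in library 1 and 371 CPM in library 6, with a UMI in 26.6% and 62.5% of them.

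Library 1 alone had the 20 selected cells set as the minimum for comparing genes with the other kept cells of the same library. The 112 selected cells held 353607 UMIs in all and were set against the sum of the 1840 others. Of 5155 genes with at least 20 CPM in either, 656 (12.7%) were at least 4-fold higher in the selected cells and 584 (11.3%) at least 4-fold lower, on the scale of CPM + 5. Since the cells were chosen on this contrast, these counts and the values below are a description of what was chosen, with no test. Counts by list cover measured genes alone, and listed genes under 20 CPM in both sums are left out. Genes of a cell type pass that filter mostly through the group where they are high. Counts of higher or lower genes on cell type lists therefore carry little weight. The median over all measured genes was a log2 ratio of 0.36, which became -0.14 with median-of-ratios scaling, a shift of -0.50. With that scaling 347 genes were at least 4-fold higher and 785 lower.

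Genes of epithelial structure led. Of 13 measured genes on that list, 12 were at least 4-fold higher and none lower, with a median log2 ratio of 4.52. The filter favours such a count. All 19 matched genes of the list summed to 12562 CPM in selected cells and 391 CPM in others. EPCAM stood at 1100.1 CPM (993 to 1215) in selected cells and 17.3 CPM (14.5 to 20.3) in others. With cells thinned to 1500 UMIs it was found in 68.8% of selected cells, 2.50% of others and 2.22% of T cells. KRT19 had 3317 CPM in selected cells and 56.5 CPM in others. LGALS4, a galectin of gut epithelium, had 1790.1 CPM in selected cells and 23.3 CPM in others, a log2 ratio of 5.99. PIGR, the receptor that carries IgA across the epithelium, had 2655 CPM in selected cells and 43.3 CPM in others, and was found in 110 of the 112 selected cells. The tetraspanin TSPAN8 and the tight junction protein CLDN3 had log2 ratios of 5.50 and 4.51. SPINT2, a protease inhibitor, had a log2 ratio of 0.84 and was the 1 gene of the list under 4-fold.

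Many measured absorptive genes were also high. Of 28 matched genes 11 were measured, of which 9 were at least 4-fold higher and none lower (median log2 ratio 3.52). Of the 28, 8 had no UMI in selected cells. GUCA2A, the precursor of guanylin, a peptide that sets salt and water secretion, had 2206 CPM in selected cells and 42.2 CPM in others. It was found after thinning in 54.5% of selected cells and 4.67% of others, and a single selected cell held 127 of its 780 UMIs. PHGR1 had 650.4 CPM in selected cells and 16.4 CPM in others. The creatine kinase CKB had 489 CPM in selected cells, a log2 ratio of 4.95 to the others. CA2, a carbonic anhydrase of surface colonocytes, had 62.2 CPM from 22 UMIs in selected cells and 1.35 CPM in others.

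Of 23 matched genes on the goblet and mucus secretory list 10 were measured, and 11 had no UMI in selected cells. Of the 10 measured, 8 were at least 4-fold higher and none lower, with a median log2 ratio of 3.15. AGR2, an endoplasmic reticulum protein needed for mucin folding, had 3320 CPM in selected cells and 97.2 CPM in others, and was found after thinning in 92.0% of selected cells. SPINK1 had 896 CPM in selected cells and 12.1 CPM in others. The goblet cell products TFF3 and ZG16 did not follow. TFF3 had 76.4 CPM in selected cells and 20.6 CPM in others, and ZG16 had 215 CPM in selected cells and 136 CPM in others. In selected cells 25 of the 27 TFF3 UMIs and 61 of the 76 ZG16 UMIs came from 1 cell. MUC2, the main gut mucin, could not be matched to a symbol and was not analysed here.

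Regulators of gut epithelial identity were measured for 8 genes, of which 7 were at least 4-fold higher and none lower (median log2 ratio 3.11). The homeobox factor CDX1 had 362 CPM in selected cells, a log2 ratio of 5.06 to the others, and CDX2, its relative, had 130.1 CPM in selected cells and 4.04 CPM in others. HNF4A, a nuclear receptor of gut and liver epithelium, had 42.4 CPM from 15 UMIs in selected cells and 2.08 CPM in others. ELF3 had 433 CPM in selected cells and 23.9 CPM in others. KLF4 had a log2 ratio of 1.96.

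Of 11 measured crypt and cell division genes, 6 were at least 4-fold higher and 2 lower. MKI67, a protein of dividing cells, had 136 CPM in selected cells and 11.9 CPM in others, and after thinning was found in 17.9% of selected cells and 1.41% of others. TOP2A had a log2 ratio of 3.23 and RRM2 one of 3.37. The crypt marker OLFM4 was lower, with 3 UMIs (8.48 CPM) in selected cells and 68.9 CPM in others. CD44, which leukocytes also express, had 56.6 CPM in selected cells and 389 CPM in others.

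Host defence genes of the epithelium were high in the selected cells of library 1. Of 9 measured on the antimicrobial list, 6 were at least 4-fold higher and 1 lower, with a median log2 ratio of 4.01. LCN2, which withholds iron from bacteria, had 682 CPM in selected cells and 14.2 CPM in others, and after thinning was found in 61.6% of selected cells and 1.68% of others. The elastase inhibitor PI3 had 243 CPM in selected cells and 3.18 CPM in others. DUOXA2, the maturation factor of the oxidase DUOX2, had 127 CPM in selected cells and 3.18 CPM in others. REG1A, a lectin of injured gut epithelium, had 328 CPM in selected cells and 0.367 CPM in others, yet its 116 UMIs came from 5 of the 112 cells. LYZ was lower, at 42.4 CPM in selected cells and 1045 CPM in others, which include myeloid cells. Of 5 measured chemokine and cytokine genes, 2 were at least 4-fold higher and 1 lower. CCL15 had 605 CPM in selected cells and 6.61 CPM in others, and IL33 had 62.2 CPM in selected cells and 4.53 CPM in others, with 12 of its 22 UMIs in 1 cell.

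Genes of interferon response and antigen presentation were not higher as a list. Of 13 measured, none was at least 4-fold higher and 6 were lower (median log2 ratio -1.71). B2M, the light chain of MHC class I, had 6148 CPM in selected cells and 32052 CPM in others. The MHC class II genes were at similar levels in both, with 373 CPM of HLA-DRA in selected cells and 366 CPM in others, and 981 CPM of its partner CD74 in selected cells and 788 CPM in others. After thinning, HLA-DRA was found in 29.5% of selected cells, 5.60% of others and 4.15% of T cells, and MAMU-DRB1 in 40.2% of selected cells, 6.58% of others and 4.91% of T cells.

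Energy genes differed less. Of 20 measured genes of the respiratory chain, 6 were at least 4-fold higher and none lower, with a median log2 ratio of 1.82. Together they made up 21942 CPM in selected cells and 7534 CPM in others. Of 16 measured genes of the endoplasmic reticulum 2 were higher, AGR2 among them, and 1 lower. Among 10 immediate early and heat shock genes 1 was at least 4-fold higher and 5 lower, with sums of 2186 CPM in selected cells and 5465 CPM in others.

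Of 7 measured barrier genes, 5 were at least 4-fold higher (median 2.88), among them the membrane mucin MUC13 at 73.5 CPM in selected cells and 1.47 CPM in others. Of 6 ion transport genes, 5 were higher, among them the sodium pump subunit ATP1B1 at 226 CPM in selected cells and 7.22 CPM in others. Of 7 lipid genes, 4 were higher and 1 lower. No gene of the tuft, BEST4 and M cell list reached 20 CPM in either group. Of 3 measured enteroendocrine genes 1 was higher and 1 lower, and of 2 measured prohormone genes 1 was lower.

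Leukocyte genes made up the other side of the contrast. All 10 measured leukocyte genes, 8 T cell genes, 1 B cell gene and 4 plasma cell genes were at least 4-fold lower, as were 5 of 6 myeloid genes. Such genes pass the 20 CPM filter mostly through the other cells, and the CD3 and JCHAIN limits shaped the choice. These counts therefore carry no weight of their own. The leukocyte list summed to 101.8 CPM in selected cells and 5793 CPM in others. PTPRC had 4 UMIs in 112 selected cells (11.3 CPM), against 394 CPM in others. IGKC, the kappa light chain, had 79.2 CPM in selected cells and 23154 CPM in others, and GZMB, a killer cell protease, had 1 UMI in selected cells and 1496 CPM in others. On the stromal list, 5 of 7 measured genes were at least 4-fold higher and 2 lower, but 1 collagen cell held 117 of the 118 COL1A1 UMIs and all 244 DCN UMIs. Without that cell the list had 10 UMIs (29.0 CPM) in selected cells and 1669 CPM in others. None of the 7 was then higher and all 7 were at least 4-fold lower (median log2 ratio -3.44). At such counts genes pass the 20 CPM filter mostly through the other cells, so these calls add nothing to the sums.

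**Figure D2:**
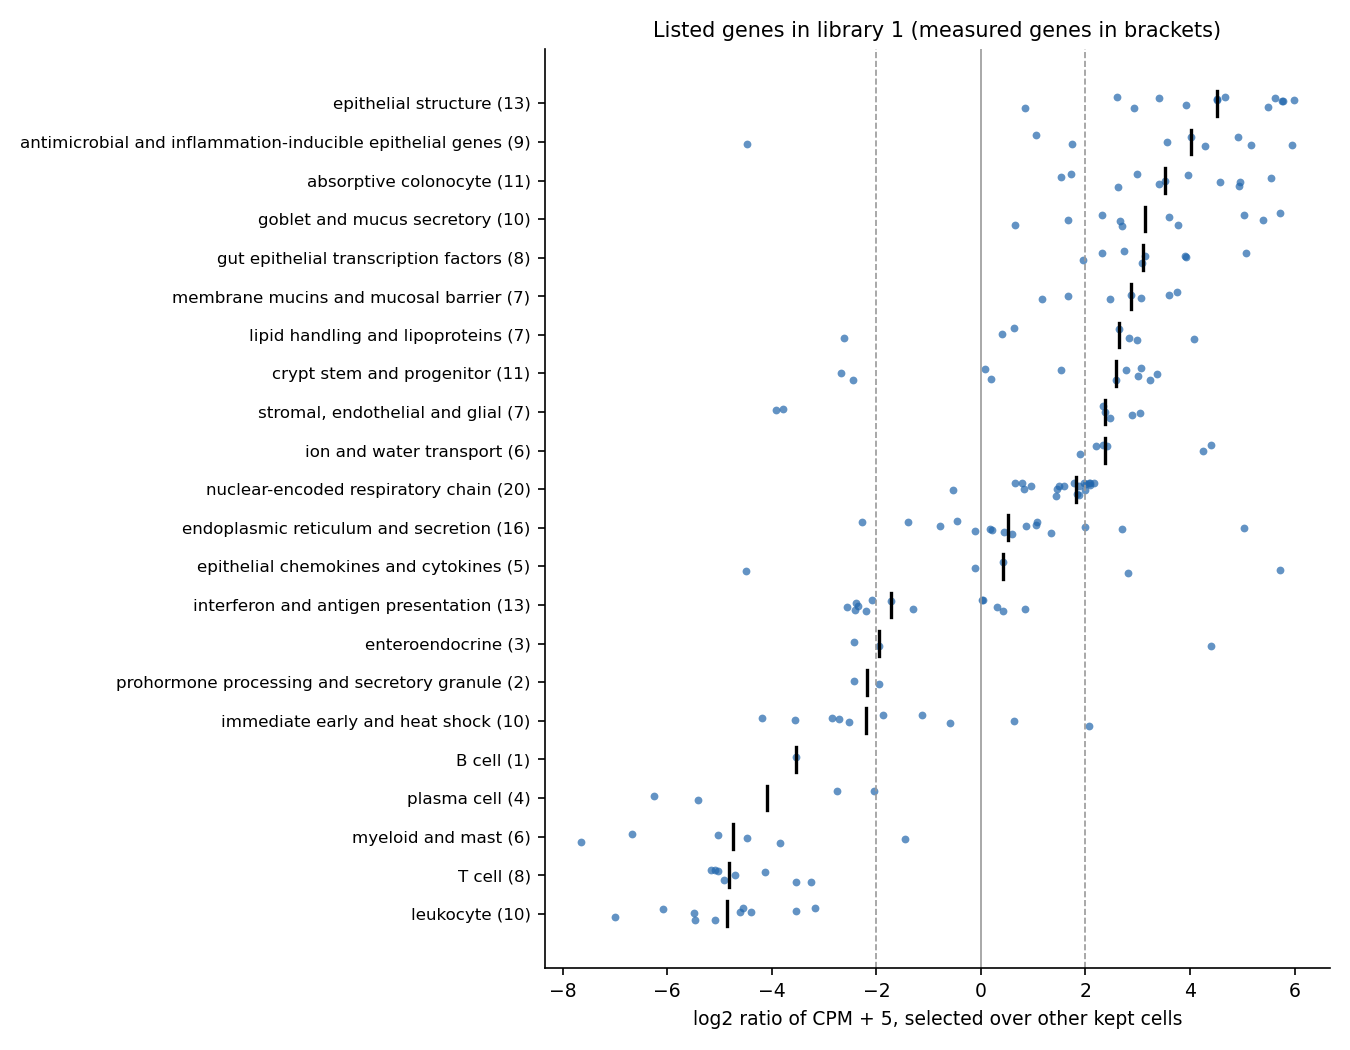
Each point is 1 measured gene of a list in library 1, placed by the log2 ratio of CPM + 5 between 112 selected cells and 1840 other kept cells. Black bars are list medians and dashed lines mark 4-fold; epithelial structure has the highest median (4.52) and the leukocyte list the lowest (-4.85), while the stromal median of 2.38 becomes -3.44 without 1 collagen cell.

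Libraries 6 and 7 held too few selected cells for calls, and their values stand beside those of library 1. EPCAM had 1556 CPM in the selected cells of library 6 and 1223 CPM in those of library 7, with 123.6 and 11.5 CPM in the other kept cells of the same libraries. PIGR had 3139 CPM and 2039 CPM in the selected cells of libraries 6 and 7. LGALS4 had 1818 CPM and 2084 CPM there. The antimicrobial list did not follow in library 6, with a sum of 772 CPM in selected cells and 722 CPM in others. In library 7 it summed to 1721 CPM in selected cells and 263 CPM in others. In selected cells of both libraries led by FABP1 or PLA2G2A it summed to 1131 CPM, or 446 CPM without the collagen cells. Its gene LCN2 had 13.1 CPM in selected cells of library 6 and no UMI in those of library 7. Barcodes that met the limits but were not kept had 469 CPM of LCN2 in library 1, 18.03 CPM in library 6 and 4.62 CPM in library 7. The cause of the low LCN2 values was not tested. Of the 656 genes higher in library 1, 139 (21.2%) were at least 4-fold higher in library 6 too, and of the 584 lower ones 237 (40.6%) were lower there too. The share over all measured genes is not given here, so these shares have no base rate beside them. Of the 83 other kept cells of library 6, 12 themselves had 2 or more UMIs of EPCAM, KRT18 and KRT19.

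Some genes were at or near 0 in libraries 6 and 7. KRT19, PHGR1, CLDN3 and TFF3 had no UMI in the selected cells of either library, where 3 UMIs would give 39.2 CPM in library 6 and 136 CPM in library 7, against 3317, 650.4, 718 and 76.4 CPM in library 1. The TFF3 value of library 1 came mostly from 1 cell and lies under the limit of library 7. T cells cannot show a loss of these genes, since in the 10 other libraries barcodes with at least 3 CD3 UMIs had at most 51.8 CPM of any of them. Genes of all cell types were also at or near 0 there. COX5B, a respiratory chain subunit, had 2359 CPM in selected cells of library 1, 39.2 CPM in library 6 and 0 UMIs in library 7. In barcodes with at least 3 CD3 UMIs, COX5B had 5.99 CPM in library 6 and 0 in library 7, and 269.7 to 658 CPM in the 10 other libraries. OAZ1, a regulator of polyamine synthesis, had no UMI in those barcodes of libraries 6 and 7 and 376 to 659 CPM in the 10 others. Of 469 genes with at least 100 CPM in such barcodes of all 10 other libraries, 18 (3.84%) were more than 10-fold below the lowest of those libraries in both library 6 and library 7. For these 18 genes, the low values of libraries 6 and 7 were thus found in T cells, and the cause was not tested.

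By the gene of the rule with most UMIs, 77 cells were FABP1-led (51.0%, 42.7% to 59.2%), 67 PLA2G2A-led (44.4%, 36.3% to 52.7%) and 5 GCG-led (3.31%, 1.08% to 7.56%), and 2 were tied. Library 1 held 53 FABP1-led and 58 PLA2G2A-led cells and no GCG-led cell. Library 6 held 9, 6 and 3 of the FABP1-led, PLA2G2A-led and GCG-led cells, and library 7 held 2, 3 and 2. All 13 selected cells of libraries 10 to 13 were FABP1-led. Without the 4 collagen cells, 63 PLA2G2A-led cells remained. Most cells held both FABP1 and PLA2G2A, since 136 of 151 had a UMI of FABP1, 148 of PLA2G2A and 6 of GCG. The 2 larger subsets are thus ends of a range, and with the leading gene required at 2 times the next, 23.2% were FABP1-led and 33.8% PLA2G2A-led.

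**Figure D3:**
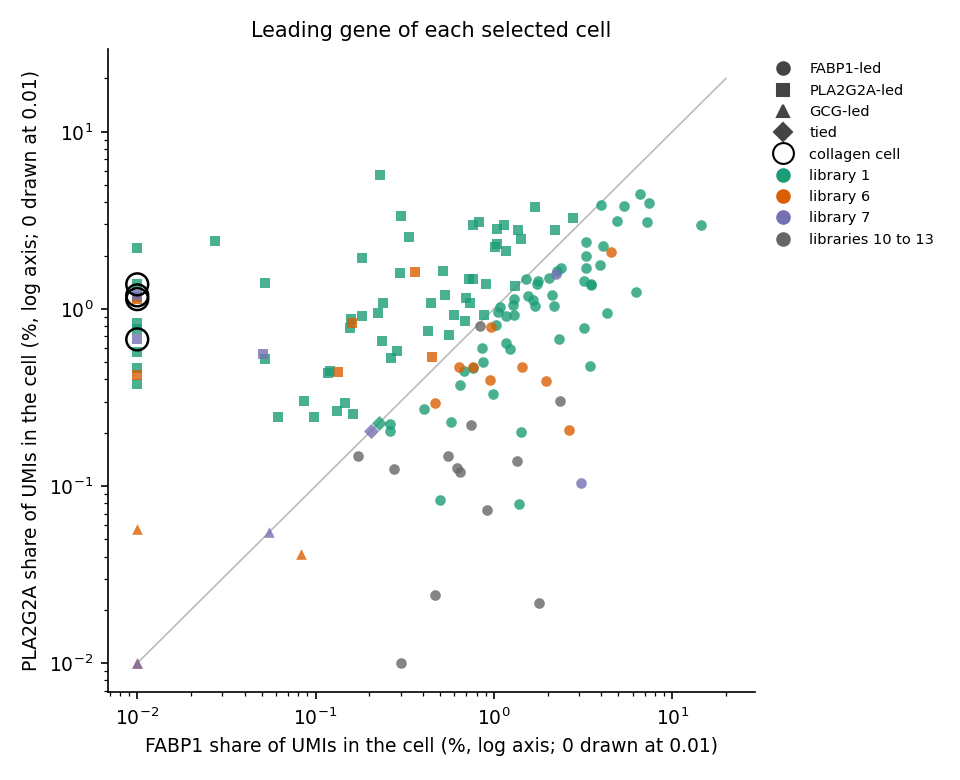
FABP1 and PLA2G2A as a share of all UMIs in each of the 151 selected cells (percent, log axes, 0 drawn at 0.01). Marker shape gives the leading gene, colour the library and black rings the 4 collagen cells; the points near the diagonal hold both genes at similar shares, and the cells of libraries 10 to 13 lie on the FABP1 side.

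FABP1-led cells had higher levels of genes of the absorptive surface. In libraries 1 and 6, which had at least 5 of them, 17 of 2942 genes (0.578%) were at least 4-fold higher in FABP1-led cells than in the other selected cells with a leading gene, with at least 10 UMIs. Without the collagen cells, 19 of 2796 (0.68%) were. On the absorptive list 10 of 28 matched genes were measured and all 10 had a log2 ratio over 0 (median 1.33, against -0.19 over all genes), of which 2 passed 4-fold. Without the collagen cells 9 of the 10 did (median 1.25). GUCA2A had 600 UMIs in 53 FABP1-led cells of library 1 (3827 CPM) and 180 UMIs in 57 PLA2G2A-led cells (969 CPM), the collagen cell left out. It was found in 38 of the FABP1-led and 37 of the PLA2G2A-led cells there. KRT20, a keratin of cells at the crypt top, was found in 8 of the 53 FABP1-led cells and 1 of the 57 PLA2G2A-led cells of library 1. CA2 was found in 9 FABP1-led cells and 3 PLA2G2A-led cells. PHGR1 had 1091 CPM in FABP1-led cells and 318 CPM in PLA2G2A-led cells of library 1.

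Several of the highest ratios of FABP1-led cells rested on single cells. ACTA2 and TAGLN, smooth muscle genes, each had their 10 UMIs in 1 cell of library 6. TFF3 had 25 UMIs in 1 library 1 cell, which also held 61 of the 69 ZG16 UMIs of FABP1-led cells, together with 131 FABP1 UMIs and 18 PLA2G2A UMIs. This was the 1 selected cell with at least 20 UMIs of these goblet products.

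PLA2G2A-led cells had 65 genes at least 4-fold higher of 2886 (2.25%) when the collagen cells were included, and the 8 with the highest ratios were DCN, CFD, IGFBP6, LUM, COL3A1, CLEC3B, TIMP1 and PTGDS, genes of fibroblasts found in 1 or 2 cells each. Without the collagen cells 21 of 2752 genes (0.763%) were, of which 14 were among the 65. The 8 highest of the 21 were CCL20, REG1A, GTF3A, SH3RF2, PPP1R14B, TRMT2A, NUP85 and TARBP2. CCL20, a chemokine that attracts CCR6-bearing lymphocytes, had 143 UMIs in 8 of the PLA2G2A-led cells of libraries 1 and 6, and 4 UMIs in 2 of the other selected cells of these libraries. Outside them, the 4 FABP1-led cells of library 10 held 35 CCL20 UMIs (1193 CPM). In library 1 it was found in 6 of 57 PLA2G2A-led cells and in 1 of 53 FABP1-led cells, and 1 library 6 cell held 59 UMIs. REG1A had 114 UMIs in 4 of the 57 PLA2G2A-led cells of library 1 and 2 UMIs in 1 of the 53 FABP1-led cells.

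Some genes of antigen presentation and inflammation had higher values in PLA2G2A-led cells, and others did not. MT2A, a metal-binding protein, had 953 CPM in PLA2G2A-led cells (in 40 of 57 cells) and 242 CPM in FABP1-led cells (in 24 of 53) of library 1. HLA-DRA had 592 CPM in PLA2G2A-led cells (487 to 714) and 134 CPM in FABP1-led cells (82.9 to 205) of library 1. MAMU-DRB1 had 619 and 217 CPM in the PLA2G2A-led and the FABP1-led cells there, and CD74 had 1459 and 472 CPM. LCN2 had 905 CPM in PLA2G2A-led cells and 466 CPM in FABP1-led cells, in 49 of 57 and 34 of 53 cells. SAA1, an acute phase protein, was found in 9 of the PLA2G2A-led and 3 of the FABP1-led cells, and IDO1, an interferon-induced enzyme of tryptophan breakdown, in 9 and 2 of them. Of 18 matched interferon and antigen presentation genes 8 were measured without the collagen cells. Of these 2 were at least 4-fold higher and 7 had a ratio over 0 (median 1.05), as had 57.3% of all 2752 genes (median 0.10). Of 8 measured antimicrobial genes 2 were at least 4-fold higher and 6 had a ratio over 0. The interferon factor IRF1 had 146 CPM in PLA2G2A-led cells and 164 CPM in the other selected cells of libraries 1 and 6, PI3 had 235 and 239 CPM, and the protease inhibitor SLPI 127 and 224 CPM, in that order. Of 10 crypt and division genes none was at least 4-fold higher and 8 had a ratio over 0 (median 0.67). AGR2 had 4033 CPM in PLA2G2A-led cells and 2705 CPM in FABP1-led cells, while KRT19 had 2574 CPM in PLA2G2A-led cells and 4395 CPM in FABP1-led cells. MKI67 was found in 16 of 57 PLA2G2A-led and 13 of 53 FABP1-led cells of library 1, with 124 CPM in PLA2G2A-led cells and 153 CPM in FABP1-led cells. The median depths of the 2 subsets in library 1 were 2840 UMIs for PLA2G2A-led cells and 2763 UMIs for FABP1-led cells. Counts of cells with a UMI are small here, and no test was made.

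The 5 GCG-led cells were hormone cells by genes that the rule did not use. Of 1046 measured genes, 56 (5.35%) were at least 4-fold higher in them than in the 20 other selected cells of libraries 6 and 7 with a leading gene, with at least 10 UMIs. The minimum of 2 such cells in a library was set for them after seeing the data, since no library had 5, and without library 6 the count was 13. Without the collagen cells, 62 of 872 genes (7.11%) were. The 8 with the highest ratios were CHGA, CPB1, SCG5, SCG3, TTR, C2H3orf14, PYY and QPCT. GCG itself had 250, 171 and 180 UMIs in the 3 library 6 cells with 5904, 1742 and 7241 UMIs in all, and 370 and 42 UMIs in the 2 library 7 cells with 3344 and 1822 UMIs in all. In the same order CHGA, the granule protein chromogranin A, had 76, 37, 139, 28 and 46 UMIs. No other selected cell of these libraries had a UMI of CHGA. The rule shaped this gap, since hormone cells low in the 3 rule genes could not be selected. Library 6 cells with 76, 203 and 93 CHGA UMIs were kept by the authors but did not meet the rule. The granule proteins SCG3 and SCG5 and the thyroid hormone carrier TTR were found in all 5 cells. Among the other selected cells of both libraries, SCG5 and TTR had no UMI and SCG3 had 1, in the library 7 cell that was tied between FABP1 and PLA2G2A and also held 1 GCG UMI.

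Genes of hormone processing were also found. CPE, which trims prohormones, had 10, 2, 6, 11 and 3 UMIs, and PAM, which amidates peptides, had 3, 2, 2, 4 and 2. PCSK1, the convertase that makes GLP-1 from proglucagon, had 3, 0, 1, 3 and 1 UMIs. Of 26 matched prohormone genes 7 reached 10 UMIs, and of 34 matched enteroendocrine genes 9 did, mostly through the GCG-led cells alone, so counts of these genes above 4-fold carry no weight. The sum of the prohormone list was 27178 CPM in GCG-led cells and 118 CPM in the other selected cells of both libraries. PYY, the other peptide hormone of L cells, was uneven, with 1, 15 and 4 UMIs in the library 6 cells and none in the library 7 cells. The transcription factor NEUROD1 had 1, 3 and 10 UMIs in the library 6 cells and none in the library 7 cells, and ETV1 was found in all 5. INSL5, another hormone of colon L cells, had no UMI in any. CPB1, a carboxypeptidase, had 133 of its 149 UMIs in 1 cell.

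GCG-led cells had low levels of absorptive and goblet genes. FABP1 had 6 and 1 UMIs in 2 of them and none in the other GCG-led cells, a low level that the choice by leading gene helps to fix. The absorptive list summed to 449 CPM in GCG-led cells and 4194 CPM in the other selected cells, and the goblet list to 1546 CPM in GCG-led cells and 14897.5 CPM in the others, where 1 collagen cell of library 7 held 680 UMIs of the listed gene ITLN1. Without the collagen cells the others had 5053 CPM of the absorptive list and 7205 CPM of the goblet list. Other epithelial lists were closer, with epithelial structure at 6034 CPM in GCG-led cells and 8823 CPM in the others, and gut epithelial transcription factors at 1845 CPM in GCG-led cells and 1354 CPM in the others. LGALS4 had 2593 CPM in GCG-led cells and 1696 CPM in the others. EPCAM, KRT18 and KRT19 together had 14, 2, 11, 3 and 3 UMIs, with KRT19 at 0, as in all kept cells of both libraries. Of 8 measured immediate early and heat shock genes, 4 were at least 4-fold higher in GCG-led cells, against 56 of all 1046 measured genes (5.35%). These were ATF3 with 22 UMIs in 4 cells, DUSP1 with 24 UMIs in 4 cells, ZFP36 and FOSB. A single cell held 32 of the 51 ZFP36 UMIs, and a single cell 13 of the 17 FOSB UMIs. FOS, which was under 4-fold, had 57 of its 100 UMIs in 1 cell. The list summed to 16357 CPM in GCG-led cells and 6219 CPM in the others, or 5564 CPM without the collagen cells.

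**Figure D4:**
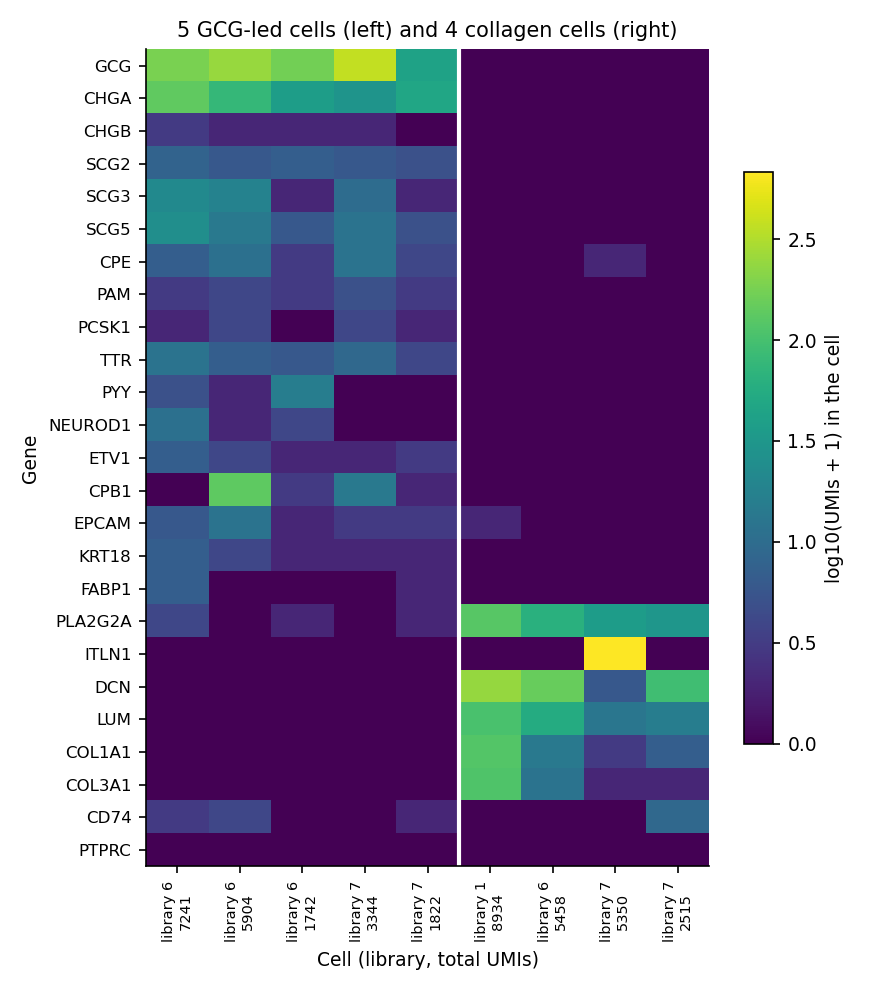
UMIs of 25 genes, as log10(UMIs + 1), in the 5 GCG-led cells (left of the white line) and the 4 collagen cells (right of it), labelled by library and total UMIs. GCG, CHGA, SCG3 and SCG5 are filled in all 5 columns on the left, DCN and LUM on the right, and PTPRC is 0 in all 9 cells.

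The 4 collagen cells had 123, 62, 36 and 30 PLA2G2A UMIs, no FABP1 and no GCG. DCN, a matrix proteoglycan, had 244 UMIs in the library 1 cell, 147 in the library 6 cell, and 5 and 90 in the library 7 cells. COL1A1 had 117, 13, 2 and 6 UMIs in that order of libraries. The library 7 cell with 5 DCN UMIs stood apart, with 680 UMIs of the lectin ITLN1, 31 of PRG4, which encodes lubricin, and 10 of TAGLN. A further 54 kept cells with at least 20 such connective tissue UMIs did not meet the rule, of which 42 were in libraries 1, 6 and 7.

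FABP1-led cells occurred in 7 libraries and differed between them. Sums over few cells can rest on 1 cell. In library 10, 1 of the 4 cells held 20597 of the 29335 UMIs. Epithelial structure there was at 29282 CPM in the sum and 12551 CPM in the median cell. The deep library 11 cell with B cell UMIs described above is among its 4 FABP1-led cells. EPCAM had 1206, 1697, 2152, 3307, 1019, 1300.1 and 954 CPM in libraries 1, 6, 7, 10, 11, 12 and 13, which held 53, 9, 2, 4, 4, 3 and 2 FABP1-led cells. LGALS4 was between 795 and 3873 CPM in all 7. JUN, an immediate early factor, had 172, 170 and 215 CPM in libraries 1, 6 and 7 and 1977, 4786, 8336 and 318 CPM in libraries 10 to 13. ATF3 had 6.38 CPM in library 1, no UMI in libraries 6 and 7, and 266 to 1300.1 CPM in libraries 10 to 13. ELF3 ran from 364 to 679 CPM in libraries 1, 6 and 7 and from 886 to 3212 CPM in libraries 10 to 13. KRT20 had 63.8, 33.9 and 0 CPM in libraries 1, 6 and 7 and 459 to 818 CPM in libraries 10 to 13. CLDN4, a claudin, had 339 to 646 CPM in libraries 1, 6 and 7 and 954 to 3441 CPM in libraries 10 to 13. The immediate early and heat shock list as a whole did not part the libraries this way. It summed to 1703, 6448 and 6241 CPM in FABP1-led cells of libraries 1, 6 and 7 and to 8284, 10059.8, 18278 and 3817 CPM in libraries 10 to 13. DUSP1, a phosphatase of that list, had 70.2, 305 and 646 CPM in libraries 1, 6 and 7 and 159 to 399 CPM in libraries 10 to 13. In the other kept cells of the same libraries the list ran from 5074 CPM in library 10 to 10703 CPM in library 11, with 5465 CPM in library 1.

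Other genes were lower in libraries 10 to 13. B2M had 5001 CPM in FABP1-led cells of library 1, 5362 in library 6 and 8177 in library 7, and 399 to 1670.4 CPM in libraries 10 to 13. PIGR had 3087 to 5595 CPM in libraries 1, 6 and 7 and 716 to 1682 CPM in libraries 10 to 13. The respiratory chain list summed to 22007, 22092 and 25178 CPM in libraries 1, 6 and 7, and to 8147, 9351, 5124 and 2545 CPM in libraries 10 to 13. In the other kept cells it summed to 7534, 9538 and 9348 CPM in libraries 1, 6 and 7, and to 3474, 5559, 5272 and 3854 CPM in libraries 10 to 13, so that libraries 1, 6 and 7 lay above libraries 10 to 13 in both kinds of cell. Barcode sequences of libraries 1 to 7 and of libraries 8 to 13 hardly overlap, with at most 3 shared by any pair across the 2 sets, though pairs within a set shared as few as 6 (libraries 1 to 7) or 1 (libraries 8 to 13). The labels name kit versions 2 and 3 without tying them to libraries, so a difference between the 2 sets of libraries cannot be told apart from one between animals or conditions.

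**Figure D5:**
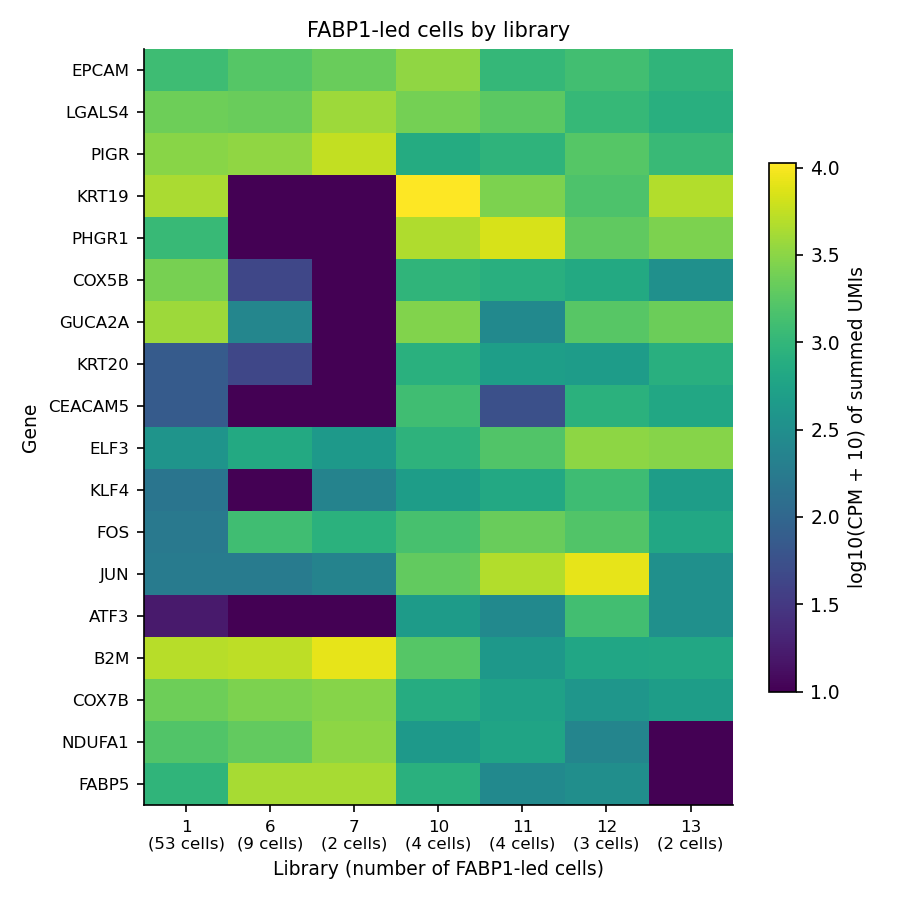
Levels of 18 genes in FABP1-led cells of 7 libraries, as log10(CPM + 10) of summed UMIs; the number of cells is under each library. JUN, ATF3 and KRT20 are highest in libraries among 10 to 13, B2M and NDUFA1 in libraries 1, 6 and 7, and KRT19 and PHGR1 are at 0 in libraries 6 and 7.

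Most barcodes with this RNA were not among the kept cells. Of all 51657 deposited barcodes outside number 4, 8000 met the rule (15.5%), and 7849 of them were not kept. The authors kept 1.89% of the barcodes that met the rule and 46.8% of the others. The lowest values among kept cells were 800 genes and 1502 UMIs, while the 7849 had a median of 582 UMIs and 176 genes. Of them 242 had over 1500 UMIs, all with fewer than 800 genes. The rule was met by 1087 of 5021 barcodes in library 1 (21.6%), 3591 of 5558 in library 6 (64.6%) and 3218 of 5416 in library 7 (59.4%), and by at most 1.25% in the other libraries. At such depths 0.3% is 1 or 2 UMIs, and 3082 of the 7849 had at least 10 UMIs of the 3 genes.

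Levels in selected cells and in barcodes that were not kept are set side by side by library. In library 1, selected cells had 14683 CPM of FABP1 and 14143 CPM of PLA2G2A, and barcodes not kept had 13755.5 and 6964 CPM. In library 6, selected cells had 6644 CPM of FABP1 and 5807 CPM of PLA2G2A, and barcodes that were not kept had 22275 and 4815 CPM. In library 7, selected cells had 5753 and 5798 CPM of the 2 genes, and barcodes not kept had 25905 and 4891 CPM. The selected cells of these libraries include GCG-led and collagen cells with little or no FABP1, and their FABP1-led cells alone had 15271 CPM of it in library 6 and 25823 CPM in library 7. CA1, a carbonic anhydrase of mature colonocytes, had no UMI in selected cells of libraries 6 and 7, and 234 and 242 CPM in barcodes not kept. SLC26A3, the chloride exchanger of the surface epithelium, likewise had none in selected cells, and 227 and 232 CPM in barcodes not kept. Only 9 and 2 selected cells there were FABP1-led, with 29468 and 4647 UMIs in all, against 2810 and 2610 barcodes not kept. At that depth a count of 0 carries little weight in library 7. AGR2 had 3060.3 and 3533 CPM in selected cells of libraries 6 and 7, and 1278 and 1317 CPM in barcodes not kept. GCG at 0.3% or more was found in 10 barcodes, of which 5 were kept.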

How the data were processed

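Single-cell RNA was measured by droplet sequencing of sorted colon leukocytes. Per the file headers, the authors deposited counts of UMIs per gene and barcode made with Cell Ranger 3.1.0, for 34628 genes and 57086 barcodes. The authors also deposited natural log normalised values for fewer cells, taken as such from the values, which served here only to find the kept cells and genes. The submitters' processing notes also name Seurat 3.1. Build and annotation: not given in the sources used here. Library totals ran from 3.12839e+06 to 1.96558e+07 UMIs, which sets the precision, and intervals cover counting error only.

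The 151 cells were found in the counts by the limits stated above. UMIs were summed over cells within a library and divided by their total (CPM), and log2 ratios of CPM + 5 were taken for genes with at least 20 CPM in either sum. Called means at least 4-fold. No test was made, since libraries could not be tied to labels, and no doublet caller was run. Symbols came from the deposited gene table for 23811 IDs and from a table of gene names for 695 more, and 32 of 410 names in 24 gene lists had no match. Genes named are list genes, the 20 highest and 10 lowest by ratio with at least 100 CPM, and the 8 highest called of each subset; others were named after their values were seen. The selected cells and the gene lists were chosen with earlier results of these data known. Other limits, scalings, pseudocounts and filters were tried, and each library was left out in turn. Python 3.11.15, numpy 2.4.6, pandas 2.3.3, scipy 1.17.1 and matplotlib 3.10.9 were used.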

Additional observations from a re-analysis of the deposited data

Results flagged for a closer look

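In barcode number 4, which the comparisons do not use, 10 of 39 kept cells met the limits on FABP1, PLA2G2A, GCG, CD3 and JCHAIN, and 8 of these barcodes are among the selected cells of library 6. Among barcodes the authors did not keep, number 4 apart, 7849 met the limits. Both lie outside the kept cells that were compared, and their source was not tested.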

How the results depend on the processing

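With a limit of 1% in place of 0.3%, 110 cells or 0.535% of kept cells were selected. Over all deposited barcodes the share was 15.5%, or 6.25% with at least 10 UMIs of the 3 genes, an alternative added after seeing the data. By library that share was 21.6%, 0.658%, 0.237%, 1.25%, 64.6%, 59.4% and 0.398% in libraries 1, 2, 3, 5, 6, 7 and 12. Leaving out each library gave shares of selected cells from 0.210% (without library 1) to 0.851%. In library 1 the count of higher genes was 347 with median-of-ratios scaling, 217 with a pseudocount of 20 CPM, 248 with a filter of 100 CPM and 141 with library 6 also required. The count of lower genes was 251 with a pseudocount of 20 CPM, 245 with a filter of 100 CPM and 237 with library 6 also required. With the leading gene at 2 times the next, FABP1-led cells were 23.2% and PLA2G2A-led cells 33.8%. Leaving out each library gave shares of 49.7% to 61.5% FABP1-led, 23.1% to 45.9% PLA2G2A-led and 1.504% to 12.8% GCG-led cells, with the extremes of the last 2 without libraries 1 and 6. Genes higher in FABP1-led cells numbered 32 with a pseudocount of 1 CPM, 4 with 20 CPM and 15 to 16 with a library left out. Their membership changed more than their number. Of the 17 genes of the main setting, 4 remained without library 1 and 10 without library 6. With the leading gene at 2 times the next there were 19, of which 8 were among the 17. Genes higher in PLA2G2A-led cells numbered 137 with the leading gene at 2 times the next, 35 with a pseudocount of 20 CPM, 21 without the collagen cells, and 30 (without library 1) to 74 with a library left out. Genes higher in GCG-led cells numbered 13 (without library 6) to 44. The causes were not tested. For the 20 highest and 10 lowest genes by ratio, the alternatives gave 390 values. Of these 293 stayed within their counting interval, 97 moved, none changed sign and none fell under 4-fold. Those genes were picked for extreme ratios, so staying above 4-fold carries little weight. Other named genes were not covered. Without library 1 no library had 20 selected cells, so its gene counts could not be computed. No paired analysis was possible because libraries could not be tied to labels and no test was made.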

Other observations

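Kept cells outside the limits also held epithelial RNA; they were looked for after values were seen. Of 10 kept cells with at least 5 CHGA UMIs, 5 were the GCG-led cells and 5 were not selected. A library 1 cell of 4399 UMIs had 205 of CHGA, 136 of the hormone PYY and 2 of GCG. A library 6 cell of 1979 UMIs had 203 of CHGA, 50 of CHGB and 11 of TPH1, the serotonin-synthesis enzyme of enterochromaffin cells. A library 5 cell of 26709 UMIs had 302 of CHGA, 238 of CHGB and 36 of TPH1, with JCHAIN at 7.84%.

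Of 8 kept cells with at least 20 UMIs of TFF3 and ZG16, all in library 1, 1 was selected. Among the 7 others, a cell of 2981 UMIs had 592 of ZG16 and 28 of TFF3, and a cell of 5086 UMIs had 90 of TFF3, 338 of AGR2 and none of FABP1, PLA2G2A or GCG. A further count found 43 kept cells under the CD3 and JCHAIN limits that were not selected and had at least 2 UMIs of EPCAM, KRT18 and KRT19, of which 21 were in library 1 and 12 in library 6.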
